A study of Mus musculus with 2 samples.

Results

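The 8 genes Srebf2, Insig1, Hmgcs1, Idi1, Fdps, Sqle, Cyp51 and Msmo1 of the cholesterol synthesis pathway were followed across the myeloid cells of a tumour-driven pleural effusion in mice. They were taken from the 27998 genes of the count matrices by symbol, and all 8 were present. They had been chosen by their measured values in these same cells, the UMIs (unique molecular identifiers, each counted as 1 RNA molecule) of Ly6c2 monocytes with little C1q set against those of C1q-positive macrophages, so that contrast is described here and not tested. The samples were 2 droplet libraries, here library 1 and library 2, of live CD45+ CD11b+ leukocytes. Both came from pleural fluid drawn 10 days after 150000 LLC cells (Lewis lung carcinoma, from mouse) had been injected into the pleural space in 100 µl of saline. Both libraries belong to this single group, so the comparisons are between cell types within the effusion, without tumour-free animals. The labels do not say whether the libraries came from separate animals. Unless stated otherwise, a p-value measures only how differences between cell types vary over these 2 libraries. The shift between libraries that all cell types share is removed, and the spread that remains may be technical.

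Cells make cholesterol from acetyl-CoA through mevalonate, isoprenoid diphosphates, squalene and lanosterol. When sterols in the endoplasmic reticulum run low, the SREBP2 precursor is carried to the Golgi and cleaved, and its released part turns on the genes of the pathway. When sterols are plentiful, INSIG proteins hold the precursor back, and macrophages that take up dead cells or lipoproteins dispose of cholesterol through LXR targets such as Abca1 and Apoe. Srebf2 encodes SREBP2, and Insig1 encodes an anchor that retains it. Hmgcs1 makes the HMG-CoA that is reduced to mevalonate, Idi1 isomerises isopentenyl diphosphate, and Fdps builds farnesyl diphosphate. Sqle epoxidises squalene, Cyp51 removes a methyl group from lanosterol, and Msmo1 oxidises methyl groups of the sterols that follow.

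SREBP2 is known to bind sterol regulatory elements, often beside a CCAAT box that NF-Y binds, so the upstream sequences of the members that hold an element core are shown first. The core searched was TCACNCCA, on both strands, in the 250 bases before the RefSeq start. Of 32851 mouse promoter entries (GRCm38.p6), 3.67% hold it. Of the 6 members with a promoter entry, 3 hold it, and none of 12 other sterol synthesis genes does. The longer TCACNCCAC, which contains the core, is in 1.05% of promoters and, among members, in Hmgcs1 only. CCAAT is in 33.9% of promoters, in 6 of 6 members and in 11 of the 12 other sterol genes. Each sequence runs 5′ to 3′ on the gene's strand, and capitals mark the core and CCAAT or its reverse complement ATTGG.
Hmgcs1, chr13:119690101-119690350, plus strand: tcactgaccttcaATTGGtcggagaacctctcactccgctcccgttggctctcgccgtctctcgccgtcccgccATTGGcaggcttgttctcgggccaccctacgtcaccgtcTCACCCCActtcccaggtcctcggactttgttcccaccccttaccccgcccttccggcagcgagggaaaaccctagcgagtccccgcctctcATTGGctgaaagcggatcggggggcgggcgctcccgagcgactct
Srebf2, chr15:82147019-82147180, plus strand: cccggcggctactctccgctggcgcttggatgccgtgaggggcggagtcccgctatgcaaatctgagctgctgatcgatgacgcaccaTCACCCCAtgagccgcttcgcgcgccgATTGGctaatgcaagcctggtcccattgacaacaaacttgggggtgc
Msmo1, chr8:64733729-64733758, minus strand: ttcTCACTCCAtccgcgcagCCAATgactg
The Hmgcs1 core lies 137 bases, the Srebf2 core 162 bases and the Msmo1 core 177 bases upstream of the RefSeq start. The Hmgcs1 stretch carries 3 CCAAT boxes and the Srebf2 stretch 1. For Msmo1 a 30-base window with the core and the nearest CCAAT box is given, which lies downstream of the gene's first annotated GENCODE start. Idi1, Insig1 and Cyp51 have CCAAT but no core in this window, and Sqle and Fdps are named only. These are letter matches, and no binding was measured.

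On GRCm38 (mm10, GENCODE vM21) the members lie on 5 chromosomes, all are protein-coding genes, and each had between 653 and 2498 UMIs over all barcodes. Srebf2 (ENSMUSG00000022463) spans chromosome 15 from 82147181 to 82205379 on the plus strand, and Sqle (ENSMUSG00000022351) lies on the same strand from 59315077 to 59331192. Hmgcs1 (ENSMUSG00000093930) spans chromosome 13 from 119690379 to 119708260, and Idi1 (ENSMUSG00000058258) runs from 8885501 to 8892451, both on the plus strand. Insig1 (ENSMUSG00000045294) spans chromosome 5 from 28071363 to 28078662 on the plus strand, and Cyp51 (ENSMUSG00000001467) from 4081145 to 4104746 on the minus strand. Fdps (ENSMUSG00000059743) spans chromosome 3 from 89093588 to 89101959, and Msmo1 (ENSMUSG00000031604) chromosome 8 from 64718139 to 64733792, both on the minus strand. The 3′ end of Cyp51 overlaps that of Akap9 on the other strand, which had 1025 UMIs, and whether counting used strand is not given in the sources used here. The last 400 bases of Fdps, Idi1 and Insig1 have 6, 2 and 1 near-identical annotated copies, so the levels of these 3 genes, and of Cyp51, are uncertain to that extent.

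Library 1 held 1141 barcodes with a median of 9894 UMIs and none under 1999, and library 2 held 2908 barcodes with a median of 1955 and none under 500. The libraries share 4 barcodes. Cells were classed by marker UMIs alone, never by sterol genes, and a class is called by its gate. Ly6c2 monocytes had C1qa, C1qb and C1qc under 5 per 10000 UMIs and at least 1 Ly6c2 UMI (170 and 330 cells in libraries 1 and 2). C1q-positive macrophages had at least 20 per 10000 (298 and 433 cells). The gates between were C1q-intermediate cells (58 and 145) and C1q-low cells without Ly6c2 (282 and 120). Resident cavity macrophages (26 and 22 cells) expressed Alox15 at 2907 and 5332 UMIs per 1000000 (CPM) and Prg4 at 2859 and 3733 CPM. Dendritic cells (126 and 31) expressed H2-DMb2 at 943 and 454 CPM, and neutrophils (80 and 1480) S100a8 at 115533 and 74110 CPM. Alox15, Prg4, H2-DMb2 and S100a8 were among the genes that set these gates, so their levels are no separate check of identity. The list of 10 monocyte genes, Ly6c2 among them, summed to 11830 and 14840 CPM in the monocytes, against 5590 and 10601 CPM in the C1q-positive macrophages. Of that list, Chil3 was at 4742 and 3429 CPM in monocytes, against 1359 and 1687 CPM in these macrophages. F13a1 was at 924 and 916 CPM, against 836 and 923 CPM, so it was not higher in library 2. Chil3 was not particular to monocytes, with 3595 and 7013 CPM in resident macrophages and 2492 and 1198 CPM in neutrophils. S100a8 was also read in the monocytes, at 919 and 459 CPM, and whether it was their own or free RNA was not tested.

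Every member except Srebf2 had its highest mean level in Ly6c2 monocytes, while Srebf2 averaged 33.7 CPM in monocytes, against 44.4 CPM in dendritic cells. In library 2, C1q-intermediate cells exceeded monocytes for Sqle (33.2 against 30.3 CPM), Fdps (130 against 120) and Cyp51 (54.6 against 51.3). These differences were within counting error, as was that of Cyp51 in dendritic cells (58.6 CPM). Each of the 8 had its lowest mean in neutrophils or in resident cavity macrophages. The summed level was 561 and 449 CPM in the monocytes of libraries 1 and 2, or 505 ± 79.5 (SD, n = 2 libraries, from 909 and 1687 UMIs). C1q-intermediate cells had 328 and 442 CPM, and dendritic cells 273 and 390 CPM. The monocytes were thus the top gate in each library, but in library 2 they exceeded the C1q-intermediate cells by 0.02 on the log2 scale, within counting error. C1q-low cells without Ly6c2 had 210 and 269 CPM, and C1q-positive macrophages had 199 and 267 CPM. Resident cavity macrophages had 123 and 143 CPM, and neutrophils 121 and 80.3 CPM. In this order C1q-intermediate and dendritic cells overlap over libraries, and so do C1q-low cells without Ly6c2 and C1q-positive macrophages. Resident macrophages exceeded neutrophils by 0.03 on the log2 scale in library 1, within counting error, and by 0.83 in library 2. A level is a share of the RNA of a whole gate, so fewer expressing cells and less RNA per cell cannot be told apart, and neither can a change in the other RNA of the gate.

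**Figure D1:**
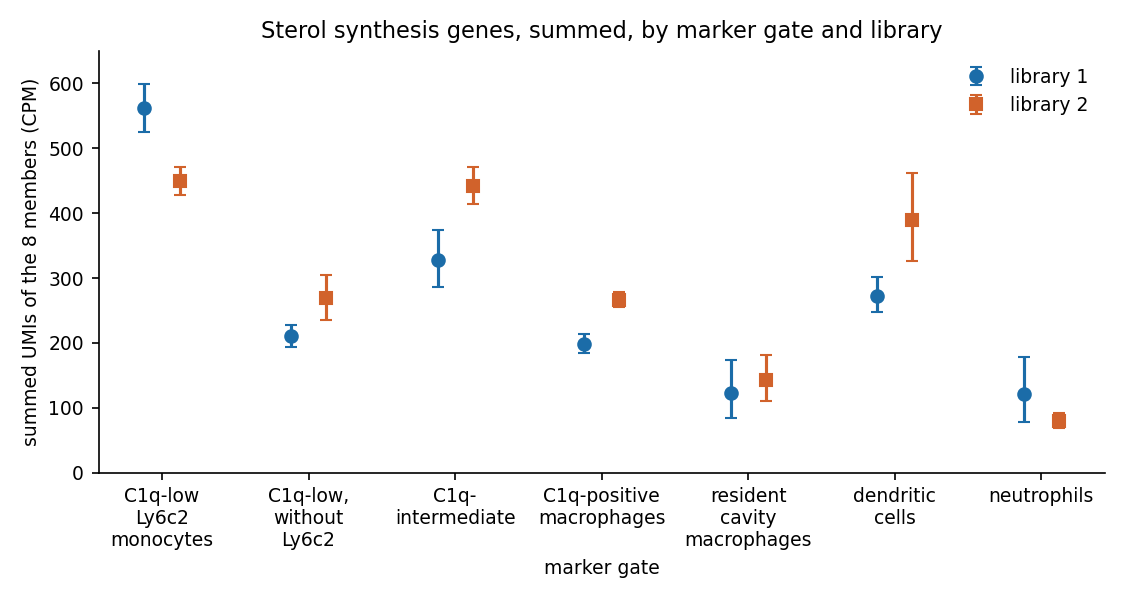
Summed UMIs of the 8 members in CPM (y axis) in each gate (x axis), with a point for each library and exact 95% counting intervals. The Ly6c2 monocytes stand at 561 and 449 CPM, and the neutrophils at 121 and 80.3 CPM.

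Ly6c2 monocytes were set beside C1q-positive macrophages gene by gene. Every member was higher in the monocytes in both libraries, and the log2 ratio of every member was larger in library 1. For the sum, the log2 ratio was 1.5 in library 1 and 0.75 in library 2, with a mean of 1.12 ± 0.53 (SD, n = 2 libraries) or 2.18-fold. In this contrast 0.421% of 9036 genes tested were called higher (38 genes) and 0.332% lower (30 genes) by edgeR, 0.753% in all, and nothing is read from the members' direction, which chose them.

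The 2 regulators had the smallest mean log2 ratios, 0.84 each. Srebf2 was at 32.7 and 34.6 CPM in the monocytes, against 12.8 and 27.6 CPM in the macrophages. Its log2 ratio was 1.35 in library 1 and 0.33 in library 2, where the counting interval runs from 0.00 to 0.65. Insig1, the retention factor and itself a known SREBP target, was at 47.5 and 45.8 CPM in monocytes, against 20.8 and 32.5 CPM in macrophages. The monocyte levels of both genes were nearly the same in the libraries, and the macrophage levels were the ones that differed.

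Hmgcs1 and Idi1, of the early pathway, had the largest mean ratios. Hmgcs1 was at 62.4 and 50.6 CPM in monocytes, against 16.1 and 27.6 CPM in macrophages, a mean log2 ratio of 1.41 ± 0.76 (SD, n = 2 libraries). Idi1 was at 53.1 and 53.5 CPM in monocytes, against 14.5 and 25.0 CPM in macrophages, a mean of 1.49 ± 0.55. For these 2 genes, as for the other 6, the monocyte values of both libraries lay above both macrophage values. They did so for 13.8% of all genes tested, but this contrast chose the members, so the 2 shares cannot be compared. Fdps, with the most UMIs of the members, was at 158 and 120 CPM in monocytes, against 62.6 and 78.0 CPM in macrophages, a mean of 0.98 ± 0.50.

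Among the enzymes of the sterol ring, Sqle was at 40.8 and 30.3 CPM in monocytes, against 16.4 and 19.8 CPM in macrophages. Cyp51 was at 47.5 and 51.3 CPM in monocytes, against 16.7 and 26.1 CPM in macrophages. Msmo1 was at 119 and 62.5 CPM in monocytes, against 38.8 and 30.2 CPM in macrophages. Msmo1 was the member whose monocyte level differed most between the libraries, and its mean log2 ratio was 1.33 ± 0.40. The counting interval of the ratio came closest to 0 for Srebf2 in library 2. These intervals cover counting error only and are no test, since this contrast chose the 8 genes.

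**Figure D2:**
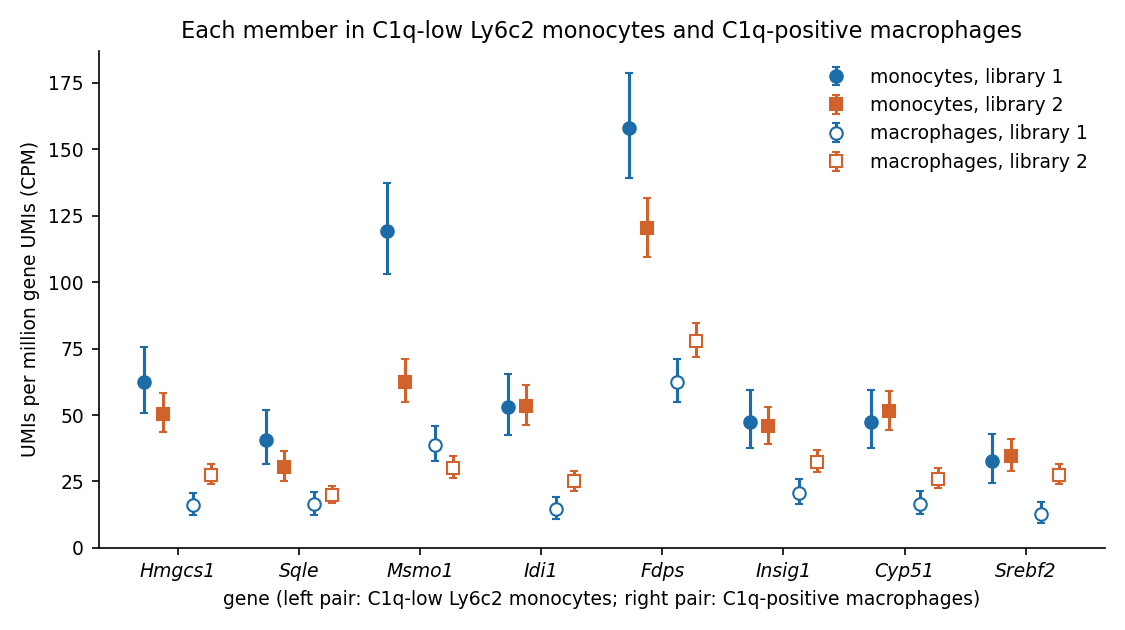
Level of each member in CPM (y axis) in Ly6c2 monocytes (filled) and C1q-positive macrophages (open), with a point for each library and its 95% counting interval. In each library the monocyte point lies above the macrophage point for all 8 genes.

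Other properties moved with these gates. The median depth was 8873 and 10401 UMIs per cell in the monocytes, against 11671 and 13766 in the macrophages. Ly6c2 itself was at 350 and 701 CPM in monocytes, against 45.9 and 377 CPM in macrophages, so it was higher in the macrophages of library 2 than in those of library 1. The 15 cell cycle genes summed to 75.3 and 76.9 CPM in monocytes, against 225 and 120 CPM in macrophages. The 13 genes of the dissociation stress list summed to 2631 and 4169 CPM in monocytes, against 2105 and 3645 CPM in macrophages. The platelet list, of which only Ppbp was read in monocytes, summed to 1140 and 177 CPM, against 2312 and 234 CPM in macrophages. The neutrophil list summed to 1903 and 1001 CPM in monocytes, with 9 of 10 genes read and Ly6g at 0, against 1342 and 776 CPM in macrophages. The mesothelial and stromal list was at 0 in the monocytes of both libraries. Their part in the ratio was not tested, apart from the cycling cells, without which the summed log2 ratio was 1.12. In library 2, which carries 2 antibody tags of unstated meaning, cells on the BC2 side gave 429 CPM in 300 monocytes, against 264 CPM in 426 macrophages. The BC3 side gave 705 CPM in 30 monocytes and 709 CPM in 7 macrophages, so the difference was not seen among these few cells.

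Over all cells of the monocyte to macrophage gates, the summed level was lowest where C1q was highest. In library 1 the summed level was 336, 328, 293, 177 and 132 CPM in cells with under 5, 5 to 20, 20 to 50, 50 to 100, and 100 or more C1q UMIs per 10000. In library 2 the same bins gave 414, 442, 303, 237 and 113 CPM. The lowest bin therefore exceeded the highest by 1.35 and 1.88 on the log2 scale. Among cells with Ly6c2 alone, library 1 gave 561, 662, 663, 273 and 175 CPM and library 2 gave 449, 448, 318, 243 and 130 CPM. In library 1 such cells with 5 to 50 C1q UMIs per 10000 were thus not below the C1q-low monocytes, and the level was lower only from 50 on.

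Ly6c2 divided the cells within those bins too. Among C1q-low cells, those with a Ly6c2 UMI had 561 and 449 CPM, against 210 and 269 CPM in those without one, differences of 1.42 and 0.74 on the log2 scale. Their median depth was 8873 and 10401 UMIs in cells with Ly6c2, against 9831 and 7896 in cells without it. Cells without Ly6c2 and with little C1q were near the C1q-positive macrophages, with a log2 ratio of 0.08 in library 1 and 0.01 in library 2, both within counting error. In library 1 the cells with Ly6c2 were higher in every C1q bin, by 2.05 in the bin of 5 to 20, by 2.00 at 20 to 50 and by 1.11 at 50 to 100. In the top bin the difference was 0.48 with an interval from -0.25 to 1.15, from 9 cells with Ly6c2. In library 2 the differences were 0.16, 1.20, 0.15 and 0.59 in those 4 bins, and only that at 20 to 50 lay beyond counting error. C1q-low cells with a Ly6c2 UMI were binned at under 2, 2 to 5, 5 to 10, and 10 or more Ly6c2 UMIs per 10000. In these bins library 1 had 418, 701, 655 and 1001 CPM. In library 2 the values were 371, 400, 529 and 511 CPM. C1q-low cells without Ly6c2 also carried the monocyte gene Chil3, at 2304 and 3444 CPM.

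**Figure D3:**
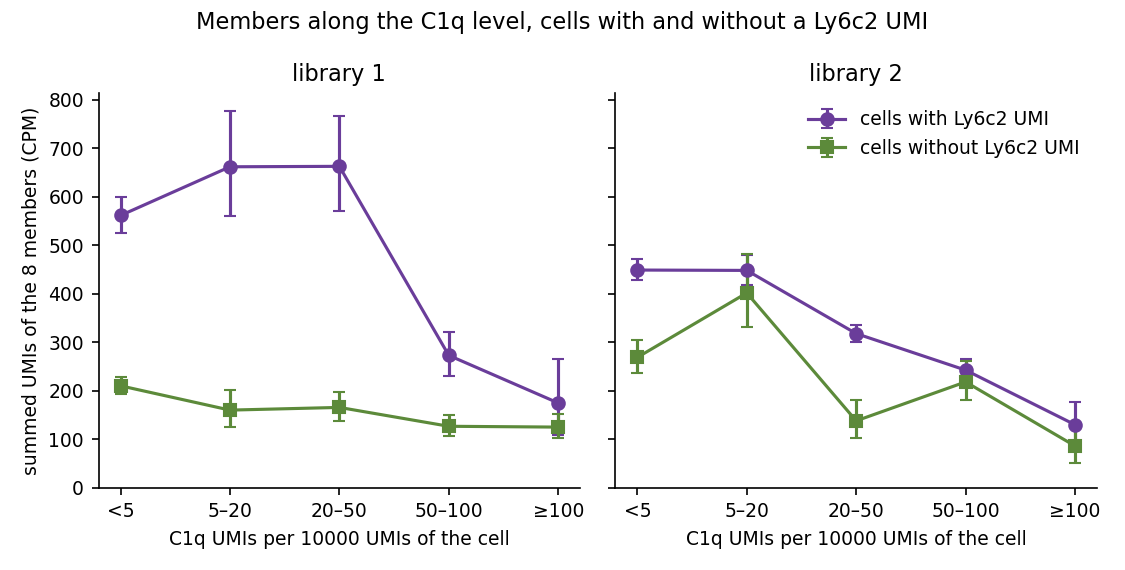
Summed member level in CPM (y axis) by C1q level in UMIs per 10000 (x axis), separately for cells with and without a Ly6c2 UMI in each library, with counting intervals. In library 1 cells with Ly6c2 lie above those without in all bins, and both libraries are lowest at 100 or more C1q UMIs per 10000.

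Shares of single cells describe the same UMIs at equal depth and add no separate support for the contrast that chose the genes. With every cell thinned to 1000 UMIs, 32.4% and 31.8% of monocytes held at least 1 UMI of any member, with exact 95% binomial intervals of 25.4 to 39.9 and 26.8 to 37.2. C1q-positive macrophages had 14.8% (10.9 to 19.3) and 21.7% (17.8 to 25.9). C1q-intermediate cells had 27.6% and 32.9%, dendritic cells 22.2% and 31.0%, C1q-low cells without Ly6c2 16.3% and 20.8%, and resident macrophages 19.2% and 13.6%. The monocytes were thus above the C1q-positive macrophages in both libraries but not above the C1q-intermediate cells in library 2. Without thinning the shares were 81.2% and 82.4% in monocytes, against 69.5% and 77.8% in macrophages. Neutrophils, the gate with the least of these transcripts, had 12.5% and 4.50% after thinning and 18.8% and 7.5% before. Their median depths were 2181 and 1329 UMIs, and 324 of the 1480 neutrophils of library 2 were too shallow to thin. No gate is known to lack these genes, so the neutrophil share is only an upper mark for free RNA. For Sqle alone 3 of 170 monocytes and 7 of 298 macrophages of library 1 had a UMI at this depth, too few to order.

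Genes around the 8 members were then tested between monocytes and C1q-positive macrophages, to ask how far the surrounding pathway differs. Of 15 other sterol synthesis enzymes 13 could be tested, 2 were higher, none was lower and their median log2 fold change was 0.79, against 0.01 over all genes tested. Sc5d, a desaturase of the last steps, was at 36.4 and 31.7 CPM in monocytes, against 15.3 and 14.7 CPM in macrophages, higher by 1.18 ± 0.25 on the log2 scale (SE, edgeR adjusted p = 0.0339). Lbr, a sterol reductase that is also a nuclear envelope protein, was at 85.2 and 105 CPM in monocytes, against 48.7 and 82.1 CPM in macrophages (edgeR adjusted p = 0.221).

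Of 17 genes of SREBP2 control and sterol uptake 15 were tested, and 1 was called, with a median of -0.04. None of 12 isoprenoid branch genes and none of 9 fatty acid synthesis genes passed, with medians of -0.07 and 0.16 and 1 gene each under an unadjusted p of 0.05. Of all 9036 genes tested in this contrast, 755 had an unadjusted p under 0.05 in edgeR. Nus1, of dolichol synthesis, had -0.08 and Elovl1, a fatty acid elongase, 0.17. The genes called higher were 3 in all these lists, of sterol synthesis and of SREBP2 control and uptake.

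No gene of sterol efflux passed among 12 tested, 3 of them under an unadjusted p of 0.05, and DESeq2 called none of them. Apoe, which carries sterols out of macrophages, was at 4305 and 3479 CPM in monocytes, against 6307 and 4181 CPM in macrophages (log2 fold change -0.42, edgeR adjusted p = 0.873). Of 15 cell cycle genes 2 fell, and 12 had an unadjusted p under 0.05 in edgeR, against 755 of all 9036 genes tested. Birc5, an inhibitor of apoptosis made in mitosis, had 1 and 3 UMIs in monocytes, against 52 and 50 in macrophages (edgeR adjusted p = 0.0116). Stmn1, a microtubule regulator, was at 2.47 and 3.46 CPM in monocytes, against 37.7 and 14.7 CPM in macrophages (edgeR adjusted p = 0.0438). Pcna had a log2 fold change of -0.23. None of 12 dissociation stress genes passed, none had an unadjusted p under 0.05, and Junb had 0.36. DESeq2 called none of the 88 genes of all these lists higher and 2 lower. Without the library as a block, edgeR called none in either direction, with 17 under an unadjusted p of 0.05, and gave Sc5d an adjusted p of 1.

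**Figure D4:**
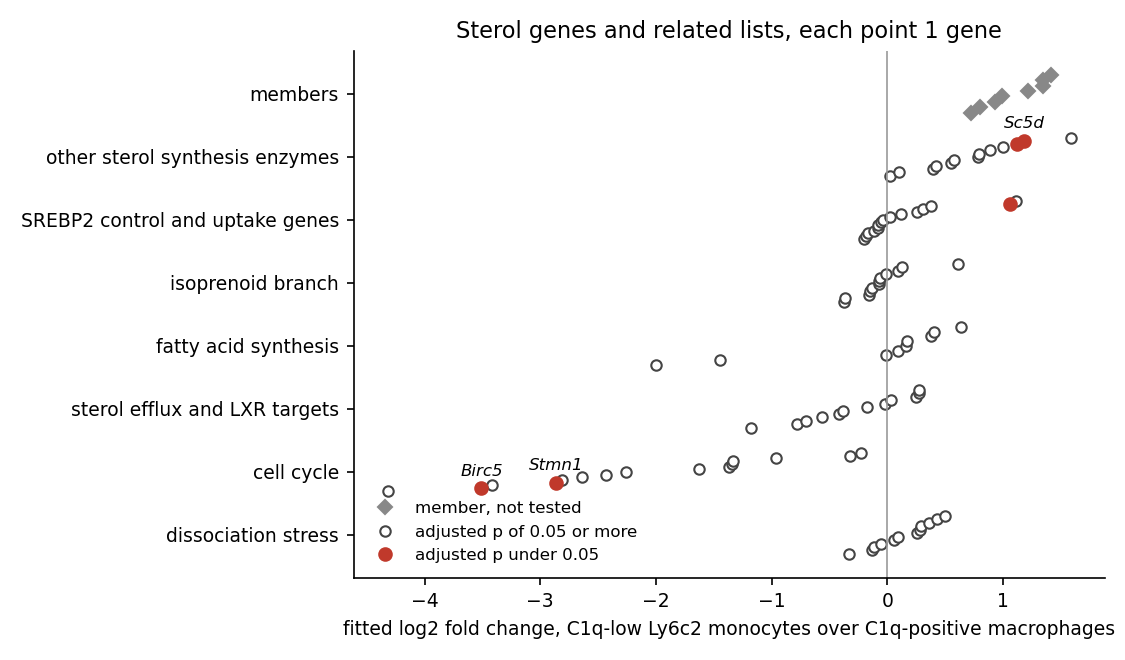
Log2 fold change of each gene of the related lists, Ly6c2 monocytes over C1q-positive macrophages (x axis), by list (y axis). Members are grey diamonds and were not tested, and red points passed an adjusted p of 0.05. The other sterol synthesis enzymes have a median of 0.79. Sc5d, called higher, and Birc5 and Stmn1, called lower, are named.

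Contrasts of cells on neither side of the one that chose the members were tested by the same model, first dendritic cells over neutrophils. The members were chosen with earlier results of these data known, so the choice was not blind to these gates either. Members were higher in 6 of 8 cases, against 25.3% of all genes called higher and 23.6% lower (48.9% either way), and their median log2 fold change was 1.71, against 0.09 over all genes. Cyp51 was at 23.6 and 58.6 CPM in dendritic cells, against 0 and 7.26 CPM in neutrophils, where no UMI in library 1 allows up to 14.5 CPM. It was higher by 2.12 ± 0.47 on the log2 scale (SE, edgeR adjusted p = 0.00116). Fdps was at 56.0 and 90.9 CPM in dendritic cells, against 14.5 and 11.5 CPM in neutrophils, higher by 2.01 ± 0.35 (edgeR adjusted p = 0.000138). Srebf2 was at 33.0 and 55.7 CPM in dendritic cells, against 14.5 and 8.12 CPM in neutrophils, higher by 1.91 ± 0.40 (edgeR adjusted p = 0.000819). For these 3 genes both dendritic cell values lay above both neutrophil values, as they did for 47.7% of all genes tested.

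Of the remaining members, Sqle, Idi1 and Msmo1 also rose. Sqle was higher by 2.07 ± 0.63 (edgeR adjusted p = 0.0113), resting on 25 and 5 UMIs in dendritic cells, against 0 and 7 in neutrophils. Idi1 was higher by 1.51 ± 0.40 (edgeR adjusted p = 0.00461). Msmo1 was at 64.7 and 52.8 CPM in dendritic cells, against 53.2 and 11.5 CPM in neutrophils, higher by 1.10 ± 0.42 (edgeR adjusted p = 0.0373), so nearly all of its difference lay in library 2. Hmgcs1 did not pass at 0.87 ± 0.46 (edgeR adjusted p = 0.128), nor did Insig1 at 0.33 ± 0.37 (edgeR adjusted p = 0.480). Among 13 other sterol enzymes 6 were higher and 2 lower. Lbr was at 66.1 and 90.9 CPM in dendritic cells, against 252 and 289 CPM in neutrophils (log2 fold change -2.24, edgeR adjusted p = 2.35e-07). Sc5d was at 22.9 and 23.4 CPM in dendritic cells, against 29.0 and 72.2 CPM in neutrophils (-1.96, edgeR adjusted p = 0.000143). Nsdhl, Mvk and Dhcr7, all sterol or mevalonate enzymes called higher, had at most 4 UMIs in neutrophils of either library, and Ebp, an isomerase of the late pathway, had -0.03.

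Neutrophils differ from the other gates in depth and in much of their RNA. The dissociation stress list summed to 1721 and 2714 CPM in dendritic cells, against 5869 and 12670 CPM in neutrophils, and the cell cycle list to 237 and 648 CPM, against 14.5 and 41.0 CPM. Scaled by library size alone, without TMM, the median of all genes was 0.62 in place of 0.09, and 71% of called genes were higher (3435 against 1403 lower) in place of 51.8% (2289 against 2130). With cells over 2000 UMIs only, 2 members were called, Fdps and Srebf2. On the BC2 side of library 2 the summed level was 403 CPM in 19 dendritic cells, against 297 CPM in 33 neutrophils, and on the BC3 side 364 CPM in 12 dendritic cells, against 64.2 CPM in 1447 neutrophils. The part of depth, stress genes and tag side in these calls was not tested further.

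Resident cavity macrophages, which populate the pleural space in health, were set against dendritic cells. Members were lower in 4 of 8 cases and higher in none, against 9.69% of all genes called lower and 10.1% higher (19.8% either way), with a median of -1.67, against -0.05 over all genes. Cyp51 had 0 and 2 UMIs in resident macrophages, against 35 and 20 in dendritic cells (edgeR adjusted p = 0.00107). In library 2 its log2 ratio was -3.78 with a counting interval from -6.92 to -1.74, and in library 1 the count of 0 allows up to 11.2 CPM, against 23.6 CPM in dendritic cells. Idi1 had 3 and 3 UMIs in resident macrophages, against 44 and 13 in dendritic cells (edgeR adjusted p = 0.00575). Its log2 ratio was -1.40 in library 1 with an interval from -3.74 to 0.24, and -2.58 in library 2 with an interval from -5.03 to -0.71. Both are low in resident macrophages, whose 26 and 22 cells gave 33 and 67 UMIs for all members.

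Srebf2 was at 14.9 and 14.9 CPM in resident macrophages, against 33.0 and 55.7 CPM in dendritic cells, a log2 fold change of -1.70 ± 0.46 (SE, adjusted p = 0.0135 in edgeR). Fdps was at 26.2 and 40.5 CPM in resident macrophages, against 56.0 and 90.9 CPM in dendritic cells (-1.10 ± 0.34, edgeR adjusted p = 0.0302). For each of these 2 genes both resident macrophage values lay below both dendritic cell values, as they did for 21.3% of all genes tested. Sqle, Hmgcs1 and Msmo1 had fold changes between -2.17 and -1.25 and edgeR adjusted p between 0.0641 and 0.0720. Insig1 stood apart from the others, at 33.6 and 34.1 CPM in resident macrophages, against 25.6 and 35.2 CPM in dendritic cells (-0.00, edgeR adjusted p = 1). Of the other sterol enzymes 2 of 13 were lower and 1 was higher. Pmvk, a mevalonate pathway kinase, was at 29.9 and 27.7 CPM in resident macrophages, against 138 and 161 CPM in dendritic cells (-2.49, edgeR adjusted p = 4.21e-06). Mvd, which makes isopentenyl diphosphate, was at 127 and 53.3 CPM in resident macrophages, against 29.7 and 49.8 CPM in dendritic cells (1.17, edgeR adjusted p = 0.0300), with most of the difference in library 1. The cell cycle list summed to 688 and 458 CPM in resident macrophages, against 237 and 648 CPM in dendritic cells, and its part in these calls was not tested. When Leiden clusters took the place of the gates, none of the 8 members was called and 5 had an unadjusted p under 0.05.

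Between resident cavity macrophages and neutrophils no member was called in either direction, against 22.9% of all genes called higher and 22.6% lower (45.5% either way). Of the 8, 1 had an unadjusted p under 0.05 in edgeR, against 4709 of all 9036 genes tested, and DESeq2 called none of the 8. The median of the members was -0.12, against 0.10 over all genes. Fdps came nearest, at 26.2 and 40.5 CPM in resident macrophages, against 14.5 and 11.5 CPM in neutrophils (0.91 ± 0.43, edgeR adjusted p = 0.0931), and it passed when scaled by library size alone. That scaling moved the median of all genes to 0.76, with 74.6% of calls higher (3456 against 1177) in place of 50.3% (2066 against 2044). With so few UMIs in both gates, standard errors ran from 0.41 for Insig1 to 1.06 for Sqle on the log2 scale, so differences of that order were not detectable at this depth. Of 13 other sterol enzymes 2 were higher and 2 lower. Mvd was at 127 and 53.3 CPM in resident macrophages, against 4.84 and 5.55 CPM in neutrophils (3.11, edgeR adjusted p = 4.94e-05), and Nsdhl, a late sterol dehydrogenase, had 1 and 10 UMIs, against 0 and 3 (edgeR adjusted p = 0.0249). Lbr and Sc5d were again lower, with -2.68 (edgeR adjusted p = 1.50e-07) and -2.63 (edgeR adjusted p = 8.70e-05). The 3 contrasts share their gates, so they are not separate pieces of evidence.

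**Figure D5:**
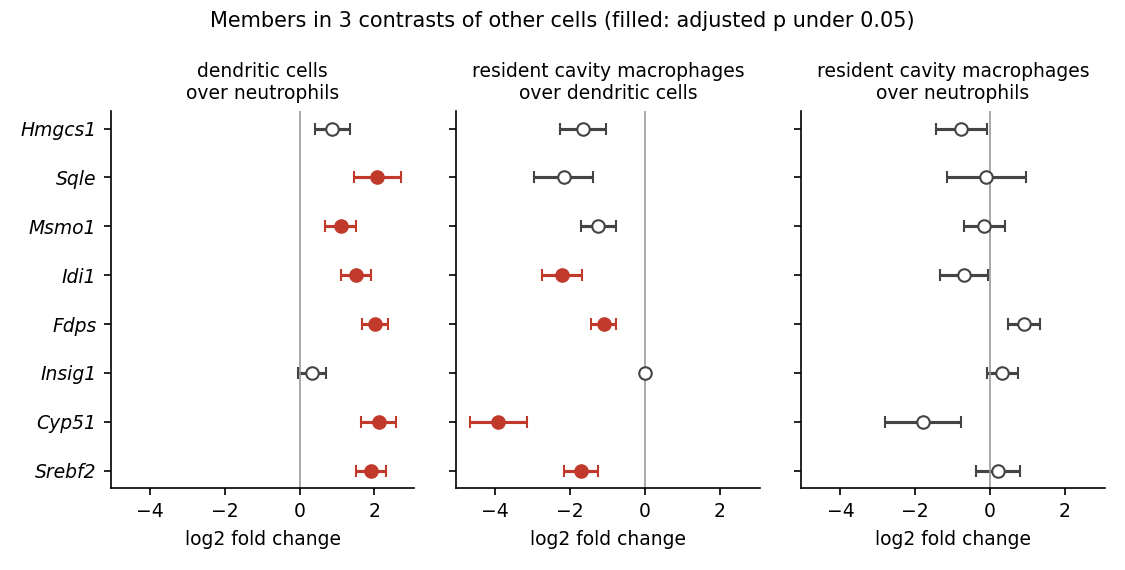
Log2 fold change of each member (y axis) with its standard error in dendritic cells over neutrophils, resident cavity macrophages over dendritic cells, and resident cavity macrophages over neutrophils (x axis), filled where the edgeR adjusted p was under 0.05 (no error could be computed for Insig1 in the second). In the first contrast 6 members lie above 0 and pass, in the second 4 lie below 0 and pass, and in the third none passes.

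The genes whose levels most resembled the sum of the members were found over the 12 sums of 6 gates by 2 libraries, on log2(CPM + 1) centred per library. The 8 nearest genes outside the members were Tm2d2 (Pearson r of 0.95), Siah2 (0.95), Pcbp1 (0.94), Elk3 (0.93), Evl (0.92), Hnrnpf (0.92), Srrm1 (0.92) and Etv6 (0.92). The 12 points share 2 libraries and the depth of each gate, and with so few of them the order among these genes is a description only. Siah2, a ubiquitin ligase, was at 42.6 and 46.0 CPM in monocytes, against 27.9 and 40.4 CPM in C1q-positive macrophages and 19.4 and 8.97 CPM in neutrophils.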

How the data were processed

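Live CD45+ CD11b+ pleural cells were read as 2 droplet libraries of 3′ transcript ends. Per the submitters' processing notes, the authors mapped reads to mm10 and made the matrices with Cell Ranger 3.0.1. The deposited values are raw UMI counts per gene and barcode, and the annotation release is not given in the sources used here. In library 2 the counts of 2 antibody tags were kept out of all totals.

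Barcodes with at least 300 genes and at most 10% mitochondrial UMIs were kept (1116 and 2847). Only those with under 100 haemoglobin UMIs per 10000 could enter a gate. They were gated on marker UMIs per 10000: neutrophil genes at least 200 (under 50 in other gates), resident macrophage genes at least 15, and dendritic, B, and T and NK genes at least 10. Barcodes that passed the marker thresholds of 2 lineages entered no gate, with some exceptions. The B gate and the T and NK gate set no limit on dendritic or resident macrophage genes, and the resident gate set none on C1q. No doublet caller was run, and 50 and 227 barcodes stayed ungated. The members, lists and tests were chosen with earlier results of these data known.

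UMIs were summed per gate and library, for gates of at least 20 cells in each, and divided by the total of the gate (CPM). Intervals are 95%, exact Poisson for levels and exact binomial for ratios and shares, the limit for a count of 0 is 3 counts, and all cover counting error only. The sums of 6 gates entered a single edgeR quasi-likelihood fit (edgeR 4.0.16, limma 3.58.1, R 4.3.3; TMM, filterByExpr, 9036 genes), with Benjamini-Hochberg adjustment over all of them and calls at 0.05. C1q-low cells without Ly6c2 stayed out of that fit. The library is a block, since every gate was drawn from both libraries. The fit was tested on simulated counts. Named genes were all members and, per list, up to 4 called genes in each direction by fold change and the most abundant gene not called. Some genes that this rule names are counted in the lists but not reported here. Alternatives were DESeq2 1.42.0, other scalings, filters, gates, clusters (scanpy 1.11.5) and no block. RefSeq promoters were searched for motifs, and near copies of transcripts were sought with BLAST 2.17.0 (at least 95% identity over at least 90 bases).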

Additional observations from a re-analysis of the deposited data

Results flagged for a closer look

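Some cells outside the comparisons carried the members above the limit that a count of 0 allows. In the B cell gate the summed level was 86.9 CPM in library 1 (10 UMIs in 23 cells, against a limit of 26.1 CPM) and 185 CPM in library 2 (11 UMIs in 12 cells, against a limit of 50.3 CPM). In the T and NK cell gate of library 2 it was 290.0 CPM (206 UMIs in 47 cells, against a limit of 4.22 CPM). The T and NK gate of library 1 had 3 cells and 2 UMIs, under its limit. These gates fall short of 20 cells in at least 1 library, so no comparison used them.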

How the results depend on the processing

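No called result changed direction under the alternatives run, while members far from the threshold did: Insig1 in resident macrophages over dendritic cells was positive in 8 of 11 alternatives, and in resident macrophages over neutrophils Sqle was positive in 2 of 11, Msmo1 in 1 of 11 and Srebf2 in 10 of 11. Of the results that answer a comparison, 64 of the alternative values stayed and 24 moved. Stayed means within the spread over libraries, within 1.5 times the count reported or, for single-gene tests, with the call unchanged. Values with a library left out always count as stayed, since the spread comes from the same 2 libraries. The other results were single genes, summed levels in other gates, and counts per list and over all genes. Of these 820 stayed, 59 moved, 51 lost a call and 11 gained one. The summed monocyte level (505 CPM) was 765 with Leiden clusters, 626 with C1q, S100a8, S100a9, mitochondrial and ribosomal protein genes left out of the total, and 375 with all C1q-low cells as monocytes. The log2 ratio of monocytes over macrophages (1.12) was 2.00 with clusters and 0.70 with all C1q-low cells as monocytes. Leaving out a library gave 449 to 561 CPM for the level, 0.75 to 1.5 for the ratio, 1.35 to 1.88 for the step from the highest to the lowest C1q bin (1.62 with both), and 31.8% to 32.4% for the thinned share. That share (32.1%) was 52.0% thinned to 3000 UMIs, 37.4% at C1q limits of 3 and 50, 34.7% at limits of 10 and 10, 35.1% without the cell filter and 35.1% over 2000 UMIs. It was 34.8% without cycling cells, 36.4% on the BC2 side, 27.3% with all C1q-low cells and 43.7% with clusters.

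Of the related lists 5 genes were called between monocytes and macrophages, against 2 with DESeq2, 13 without a filter on low counts, 0 without the replicate block, 1 at C1q limits of 10 and 10, 1 with all C1q-low cells and 0 with clusters. Over these alternatives Sc5d was called in 8 of 13, with a positive fold change in all 13 and an adjusted p reaching 1. Birc5 was called in 9 of 12 and Stmn1 in 5 of 12. All genes called higher and lower numbered 38 and 30, against 0 and 3 without the replicate block, 20 and 11 with DESeq2, 112 and 101 without a filter, 63 and 68 at C1q limits of 3 and 50, and 11 and 15 at limits of 10 and 10. They numbered 9 and 17 on the BC2 side, 13 and 24 with all C1q-low cells, and 4 and 3 with clusters. In resident macrophages over dendritic cells the counts of 914 and 876 became 556 and 408 without the block and 547 and 390 with clusters.

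Members called in dendritic cells over neutrophils numbered 6, against 2 with cells over 2000 UMIs and 5 without the block. In resident macrophages over dendritic cells they numbered 4, against 7 without a filter, 7 with all C1q-low cells, 3 without the block and 0 with clusters, and in resident macrophages over neutrophils 0, against 1 with library size alone. The cause of these changes was not tested. Counts with a library left out could not be computed, since 1 sum per gate leaves no residual degrees of freedom. Without cycling cells the resident gate fell under 20 cells, and on the BC2 side the resident and dendritic gates did. The alternatives with all C1q-low cells as monocytes, with C1q-low cells without Ly6c2 added to the fit, and with each cell weighted equally were chosen after seeing the data, and the last gave 550 CPM and a log2 ratio of 1.10. Depth limits the single genes most in resident macrophages and in the neutrophils of library 1, where 3 UMIs make 11.2 and 14.5 CPM.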

Other observations

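Single genes of other lipid lists also differed between resident cavity macrophages and dendritic cells, though most genes of these lists did not pass. Of 9 fatty acid synthesis genes tested 3 were higher and 1 lower. Acly, which makes cytosolic acetyl-CoA from citrate, was at 411 and 356 CPM in resident macrophages, against 45.2 and 44.0 CPM in dendritic cells (log2 fold change 2.82 ± 0.30, SE, edgeR adjusted p = 1.68e-06). Acaca, which makes malonyl-CoA, was at 33.6 and 42.6 CPM in resident macrophages, against 2.70 and 11.7 CPM in dendritic cells (2.82 ± 0.61, edgeR adjusted p = 0.00257). Me1, the malic enzyme, had 7 and 35 UMIs in resident macrophages, against none in the dendritic cells of either library. Of 12 sterol efflux genes 3 were higher and none lower. Npc2, which moves cholesterol out of lysosomes, was at 923 and 1042 CPM in resident macrophages, against 415 and 706 CPM in dendritic cells (0.74 ± 0.20, edgeR adjusted p = 0.0124). Plin2, a lipid droplet coat protein, was at 1065 and 733 CPM in resident macrophages, against 150 and 308 CPM in dendritic cells (1.93 ± 0.31, edgeR adjusted p = 0.000152). Over all genes 10.1% were called higher and 9.69% lower in this contrast, and these genes were named after their values were seen.

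On the tag sides of library 2, C1q-low cells without Ly6c2 had a summed member level of 283 CPM on the BC2 side (105 cells) and 118 CPM on the BC3 side (15 cells).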
